A study of Mus musculus with 2 samples.

Results

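The subject is a set of 10 genes that encode subunits of the Polycomb repressive complexes, Ezh1, Ezh2, Eed, Suz12, Bmi1, Cbx2, Cbx7, Cbx8, Rnf2 and Ring1. They were taken by gene symbol from the GENCODE M21 tables, which list 55536 mouse genes, and all 10 were found in both libraries. The data are polyA-selected RNA-seq of embryonic mouse liver at day 12.5 from healthy B6NCrl embryos, males and females pooled. There was 1 group with 2 biological replicates, a pool of 120 embryos (replicate 1) and a pool of 88 embryos (replicate 2). The input was 10 ng of RNA per library, copied by oligo-dT priming and Nextera tagmentation, with ERCC spike-in RNAs added. The labels name no genetic modification and no treatment, so nothing was compared between conditions and no p-value is given; an exact sign-flip test over 2 libraries cannot go below p = 0.5.

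Polycomb proteins keep developmental genes silent. Polycomb repressive complex 2 (PRC2) methylates a lysine of the histone H3 tail through a catalytic subunit, EZH1 or EZH2, which works only when bound to EED and SUZ12. Polycomb repressive complex 1 (PRC1) attaches ubiquitin to histone H2A through RING1 or RNF2 (RING1B), paired with a PCGF protein such as BMI1. In its canonical form PRC1 also carries a CBX protein, whose chromodomain reads the mark left by PRC2, and a PHC protein. In the blood lineages that fill the foetal liver, BMI1 is known for its part in stem cell self-renewal and EZH2 for its use by dividing cells.

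The libraries held 37190042 and 34291772 estimated gene counts, and 13566 and 13622 genes reached 1 TPM (a transcript level scaled for length and for the total of the library). Spike-ins took 4.99% and 5.40% of the TPM. Markers of liver tissue were present: all 5 of 5 red cell, 5 of 5 hepatoblast, 5 of 5 proliferation and 5 of 5 stem and progenitor markers reached 10 TPM in both libraries. All 4 of 4 macrophage, 3 of 3 megakaryocyte, 4 of 4 endothelial and 4 of 4 mesenchymal markers reached 1 TPM. None of 4 neural and none of 3 lymphoid markers did, and 1 of 3 skeletal muscle markers did, with a summed level of 2.96 TPM in replicate 1 and 9.35 TPM in replicate 2. Every value below is therefore an average over several cell types, and fewer cells of a type cannot be told apart from less RNA per cell.

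All 10 subunit genes were expressed. All 10 of 10 reached 1 TPM in both libraries, against 53.5% of the 22028 protein-coding genes, and 4 of 10 reached 10 TPM, against 31.5%. Their median level was 8.67 TPM, above the median of 1.82 TPM over protein-coding genes. The 4 PRC2 genes lay higher than most of the 6 PRC1 genes. The median of the PRC2 genes was 36.15 ± 0.219 TPM, and that of the PRC1 genes 7.63 ± 0.0849 TPM (SD, n = 2). The log2 ratio of the medians was 2.24 ± 0.01 (SD, n = 2), a 4.74-fold difference in level. With 4 genes, the PRC2 median is the midpoint of Eed and Suz12, and no PRC2 gene lay at that level. Eed was lower and Suz12 higher in replicate 2, so the SD of the median was below their own (2.14 and 1.70 TPM). The SDs of the PRC2 median and of the ratio therefore do not measure how reproducible the levels of the PRC2 genes were. The overlap between the sets was at Ezh1, which lay below 2 of the PRC1 genes, and Rnf2, which lay above Suz12. Summed levels differed less, at 145 ± 2.01 TPM for PRC2 and 57.8 ± 0.785 TPM for PRC1 (SD, n = 2), a log2 ratio of 1.33. With only complete coding transcripts summed, the log2 ratio of the medians was 1.76.

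**Figure D1:**
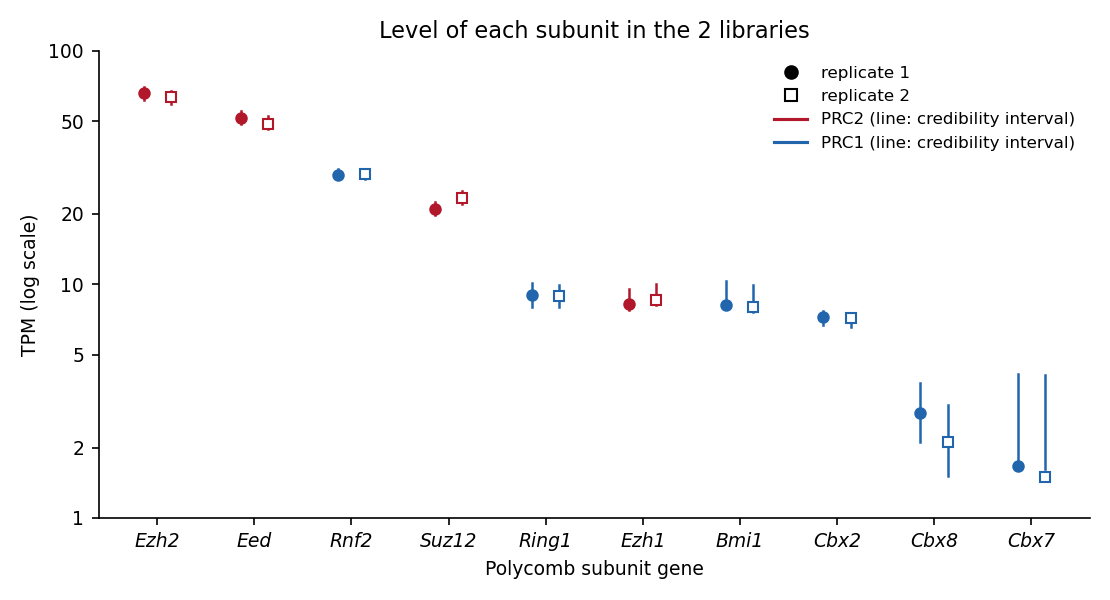
TPM of the 10 subunit genes in replicate 1 (filled circles) and replicate 2 (open squares) on a log axis, ordered by mean level, with PRC2 genes in red and PRC1 genes in blue and lines for the deposited credibility interval of each value. Ezh2 and Eed lie highest, Cbx8 and Cbx7 lowest, and the Cbx7 points sit just under their own intervals.

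The catalytic subunits of PRC2 were far apart. Ezh2 (ENSMUSG00000029687.16, GRCm38 chr6:47530139-47595341, minus strand), the methyltransferase of dividing cells, stood at 66.0 TPM (replicate 1) and 63.5 TPM (replicate 2), a mean of 64.7 ± 1.83 TPM (SD, n = 2), from 3818 and 3436 estimated counts. It was the highest of the 10 genes and lay above 91.5% of protein-coding genes. Its paralogue Ezh1 (ENSMUSG00000006920.14, chr11:101191115-101226463, minus strand), the weaker enzyme known from resting cells, had 8.23 and 8.60 TPM, a mean of 8.42 ± 0.262 TPM, from 899 and 906 counts. Ezh2 was 8.02-fold above Ezh1 in replicate 1 and 7.38-fold in replicate 2, a log2 ratio of 2.94 ± 0.09 (SD, n = 2). Ezh2 thus made up 88.5% ± 0.605 of the TPM of the pair. The size of this gap depended on how length was treated: the log2 ratio was 2.42 over complete coding transcripts and 2.00 in counts with no scaling for length. Ezh2 was the higher gene in each of these.

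Eed and Suz12, the partners without which the enzyme is inactive, were both above 20 TPM. Eed (ENSMUSG00000030619.9, chr7:89954654-89980983, minus strand), which binds the methylated histone and stimulates the enzyme, had 51.6 and 48.6 TPM, a mean of 50.1 ± 2.14 TPM (SD, n = 2), from 2448 and 2173 counts. It was the gene nearest to Ezh2 in the order, and the libraries did not overlap between them. Suz12 (ENSMUSG00000017548.15, chr11:79993106-80034123, plus strand), the scaffold of the complex, had 21.01 and 23.42 TPM, a mean of 22.2 ± 1.70 TPM, from 2484 and 2537 counts. The 3 core genes Ezh2, Eed and Suz12 were thus not at equal RNA levels. Over complete coding transcripts the order stayed the same and the spread was smaller, with 37.2 ± 1.32 TPM for Ezh2, 31.4 ± 0.530 TPM for Eed and 18.2 TPM for Suz12.

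The remaining core subunits of PRC2, the histone-binding proteins RBBP4 and RBBP7, are shared with other chromatin complexes and were above all 10 genes. Rbbp4 had 245 and 256 TPM, and Rbbp7 had 247 and 241 TPM. Of the 10 PRC2 partner genes listed, 9 were at 1 TPM or more in both libraries, against 53.5% of protein-coding genes. At 10 TPM or more were 4 of the 10, against 31.5%, and the median of the list was 6.25 TPM. Mtf2, a Polycomb-like protein that helps bring PRC2 to CpG-rich DNA, was the highest after the pair of RBBP genes, at 50.7 and 47.1 TPM, near the level of Eed. The gene for EZHIP, a germline inhibitor of the complex, had 0 counts in both libraries, which allows up to 3 counts in each.

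The enzymatic core of PRC1 was led by Rnf2 (ENSMUSG00000026484.13, chr1:151458004-151500955, minus strand), which encodes the main ubiquitin ligase, RING1B. It had 29.5 and 29.6 TPM, a mean of 29.5 ± 0.0636 TPM (SD, n = 2), from 2842 and 2664 counts, and it was the highest PRC1 gene among the 6. Ring1 (ENSMUSG00000024325.8, chr17:34020792-34024680, minus strand), its paralogue, had 8.98 and 8.87 TPM, from 533 and 515 counts. Rnf2 was 3.29-fold above Ring1 in replicate 1 and 3.34-fold in replicate 2, a log2 ratio of 1.73 ± 0.02 (SD, n = 2). Rnf2 made up 76.8% ± 0.194 of the TPM of the pair. In counts not scaled for length, the log2 ratio was 2.39.

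Bmi1 (ENSMUSG00000026739.13, chr2:18677018-18686629, plus strand), the PCGF subunit of canonical PRC1 needed for blood stem cell renewal, had 8.14 and 7.98 TPM, a mean of 8.06 ± 0.113 TPM (SD, n = 2), from 861 and 766 counts. It did not have the highest level of its family. Of the 79.3 TPM summed over 6 PCGF genes, Bmi1 made up 10.2%. Pcgf5 made up 26.2%, Pcgf1 23.3%, Pcgf6 20.6% and Pcgf3 14.4%, and these 4 are found in variant PRC1, the forms that lack the CBX proteins of canonical PRC1. These shares also depended on the scaling for length: of the counts of the family, Pcgf3 made up 33.3% and 32.8%, Bmi1 14.4% and 14.6% and Pcgf1 6.43% and 7.67%, so that Bmi1 lay above Pcgf1 and Pcgf3 was the highest. The other canonical subunit, Pcgf2 (MEL18), made up 5.32%, with 4.27 and 4.17 TPM from 101 and 96 counts.

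Bmi1 was 1.91-fold above Pcgf2 in both libraries, a log2 ratio of 0.93, but this value rests on the transcript models of Pcgf2. A 470-base non-coding model, Pcgf2-204, took 69.6% of its TPM in replicate 1 and 57.9% in replicate 2, from 36 and 27 of its counts. Over complete coding transcripts the log2 ratio of Bmi1 to Pcgf2 was 2.48, and in counts not scaled for length 3.04. It was -0.19, the opposite direction, when all counts of each gene were divided by the length of its leading transcript, which for Pcgf2 is that short model. That setting gives all 101 and 96 counts of Pcgf2 the length of a model that held 36 and 27 of them. Bmi1 was the higher gene in every other setting tried. The size of the gap is therefore not fixed by these tables, and its direction changed only in that setting.

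The CBX genes were the lowest of the set in gene TPM. For Cbx2 this depended on the scaling for length. In counts it lay above Bmi1 (861 and 766) and Ring1 (533 and 515) in both libraries. Cbx2 (ENSMUSG00000025577.7, chr11:119022962-119031270, plus strand), whose protein compacts nucleosomes, had 7.24 and 7.16 TPM, a mean of 7.20 ± 0.0566 TPM (SD, n = 2), from 871 and 803 counts. Cbx8 (ENSMUSG00000025578.9, chr11:119036305-119040969, minus strand) had 2.80 and 2.11 TPM, from 158 and 135 counts. Cbx7 (ENSMUSG00000053411.16, chr15:79915807-79971119, minus strand), the main CBX subunit of embryonic stem cells, had 1.66 and 1.5 TPM, from 160 and 149 counts. Cbx7 and Cbx8 lay above 48.8% and 52.6% of protein-coding genes, close to the middle, while the other 8 genes lay above 63.8% or more.

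Over the 4 CBX genes Cbx2, Cbx6, Cbx7 and Cbx8, which summed to 20.8 ± 0.361 TPM (SD, n = 2), Cbx6 led with 46.0% and Cbx2 followed with 34.6%. Cbx8 made up 11.8% and Cbx7 7.59% ± 0.412. In counts not scaled for length Cbx8 made up 6.04% and 5.56%, and Cbx7 6.12% and 6.14%. The TPM of Cbx7 lay below its own deposited credibility interval, which ran from 1.69 to 4.11 TPM in replicate 1 and from 1.62 to 4.10 TPM in replicate 2. The deposited posterior mean, an average over the ways of dividing the reads between transcripts, was 2.72 and 2.66 TPM for Cbx7, 1.70 times the TPM. For Cbx8 it was 2.93 and 2.26 TPM, so on that scale the mean of Cbx7 (2.69 TPM) lay above that of Cbx8 (2.60 TPM) and the libraries overlapped, and Cbx7 made up 11.8% of the sum of these CBX genes. For the other 9 genes the TPM lay inside the interval in both libraries.

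The partners of canonical PRC1 ranged from 1.19 to 26.8 TPM. All 7 of 7 listed were at 1 TPM or more, against 53.5% of protein-coding genes. At 10 TPM or more were 2 of 7, near the share of 31.5%, and the list's median was 4.22 TPM. Phc2, a Polyhomeotic protein that lets PRC1 assemble into larger clusters, had 27.8 and 25.9 TPM, near Rnf2, and made up 81.1% of its family. Phc1 had 3.74 and 3.72 TPM and Phc3 2.35 and 2.71 TPM. Scmh1 was the other partner above 10 TPM, at 16.8 and 17.9 TPM.

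The variant PRC1 genes had a higher median than the canonical PRC1 partners, a list that leaves out the PRC1 members. All 20 of 20 listed were at 1 TPM or more in both libraries, against 53.5% of protein-coding genes. At 10 TPM or more were 13 of the 20, against 31.5%, and the list's median was 17.4 TPM. Tfdp1, the dimer partner of E2F factors, led the list at 144 and 146 TPM and also serves outside Polycomb. Wdr5, shared with several histone-modifying complexes, had 39.6 and 39.5 TPM. Yaf2, 1 of the pair of subunits that occupy the place of CBX in variant PRC1, had 36.02 and 38.18 TPM, and the other, Rybp, had 8.42 and 8.16 TPM. Yaf2 made up 81.7% of their sum. No test was made between lists, whose genes were chosen from general knowledge.

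In the order of the 10 genes, Ezh2, Eed, Rnf2, Suz12, Ring1, Ezh1, Bmi1, Cbx2, Cbx8 and Cbx7, each neighbouring pair was separated in the sense that both libraries of the higher gene lay above both of the lower. The steps were uneven. The widest was from Cbx2 to Cbx8, at 2.93-fold, and the next from Suz12 to Ring1, at 2.49-fold. Between Ring1 and Ezh1 the step was 1.06-fold and between Ezh1 and Bmi1 1.04-fold, and there, as between Cbx8 and Cbx7, the deposited credibility intervals overlapped. From Bmi1 to Cbx2 the step was 1.12-fold. Over complete coding transcripts the order below Suz12 was different: Cbx2 (7.18 and 7.16 TPM) overlapped with Ezh1 (6.64 and 7.26 TPM), and Cbx7 (1.44 and 1.31 TPM) lay above Cbx8 (1.08 and 1.11 TPM) in both libraries. Ring1, Ezh1, Bmi1 and Cbx2 were thus close in level, with Ezh2, Eed, Rnf2 and Suz12 above them and Cbx7 and Cbx8 below.

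The RNA of several members was divided between transcript models. In 5 of 10 genes, Ezh2, Eed, Suz12, Cbx7 and Cbx8, at least 2 transcripts held 10% or more of the TPM in both libraries, near the share of 61% among expressed protein-coding genes with more than 1 transcript. Complete coding transcripts held a median of 84.7% of a member's TPM, against 88.1% over 11789 expressed protein-coding genes. Cbx8, Ezh2 and Eed were lowest, at 45.6%, 57.5% and 62.7%. Cbx2 was highest, with 99.2% and 100% of its TPM in the single transcript Cbx2-201. Rnf2-201 held 91.7% and 95.9%, Ring1-201 84.4% and 89.2%, and Bmi1-201 86.5% and 81.1%.

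**Figure D2:**
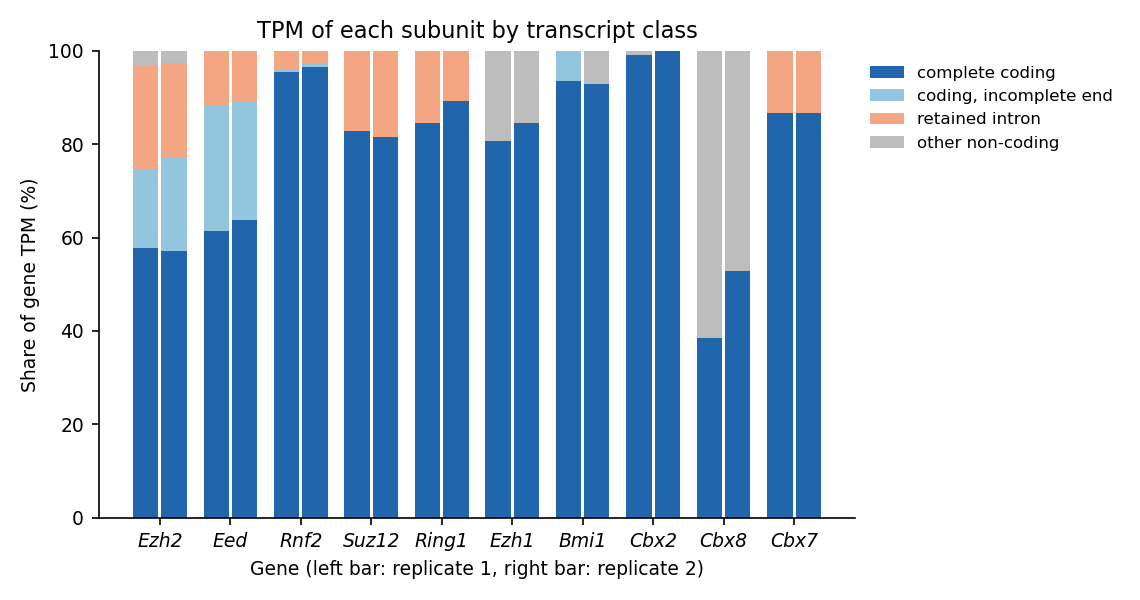
Share of each gene's TPM, in percent, held by complete coding transcripts, coding transcripts with an incomplete end, retained-intron models and other non-coding models, with replicate 1 on the left and replicate 2 on the right of each pair. Complete coding transcripts hold nearly all of Cbx2 and Rnf2 and the smallest share of Cbx8, at 45.6% on average.

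For Ezh2, the full-length transcript Ezh2-201, which codes for 746 residues, held 26.3 and 26.4 TPM, 39.9% and 41.6% of the gene. A 500-base retained-intron model, Ezh2-213, held 11.7 and 8.80 TPM. Ezh2-205, a coding model of 866 bases whose end is incomplete, held 11.1 and 12.8 TPM. These short models carried 153 and 107 counts and 277 and 296 counts, few beside the 2313 and 2147 counts of Ezh2-201, and their TPM was large because TPM divides counts by length. Ezh2-202, a complete coding transcript without 1 exon, held 9.75 and 7.05 TPM.

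For Eed, Eed-201 held 61.5% and 63.8% of the TPM, and the incomplete 767-base model Eed-205 held 26.1% and 25.3%, from 294 and 248 counts against 2040 and 1845. Eed-201 codes for 441 residues. In the older annotation, which has 2 Eed transcripts in place of 10, the same leading transcript held 97.7%.

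For Suz12, the full transcript Suz12-201 held 13.5 TPM in replicate 1 (credibility interval 10.6 to 15.5) and 18.0 TPM in replicate 2 (16.0 to 18.7), so the intervals of the libraries did not overlap. Suz12-206, a coding transcript that lacks 1 exon, held 3.91 TPM (1.63 to 6.37) and 1.12 TPM (0.0795 to 2.38), where the intervals did overlap. A retained-intron model, Suz12-203, held 13.0% and 14.1%. Suz12 was the member whose full transcript differed most in share between libraries after Cbx7 and Cbx8, at 64.2% and 76.8%.

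Cbx7 and Cbx8, at the low end, were also divided and rested on the fewest counts. Cbx7-203, coding for 158 residues, held 32.5% of the gene in replicate 1 and 74.2% in replicate 2, from 49.0 and 94.7 counts. Cbx7-201, coding for 251 residues, held 34.3% and 12.6%, from 61.1 and 18.7 counts. Which of these is the main form of Cbx7 was not settled, since they changed order between the libraries. Cbx7-207, a retained-intron model, held 13.3% and 13.2%. For Cbx8, the coding transcript Cbx8-201 held 1.08 and 1.11 TPM, and the non-coding models Cbx8-202 and Cbx8-203 held 1.35 and 0.64 TPM and 0.37 and 0.35 TPM. The coding level of Cbx8 was thus close between the libraries, and the difference in gene TPM, 2.80 against 2.11, lay in Cbx8-202, with 30.5 and 13.4 counts.

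For Ezh1, the leading transcript Ezh1-203, coding for 750 residues, held 71.3% and 73.5% by TPM. By posterior mean it held 39.8%, so the division of Ezh1 between its transcripts was not settled either. Ezh1-201, coding for 579 residues, held 9.36% and 11.1%.

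The coding transcripts of Suz12 and Ezh2 differ by whole exons or exon ends, each a multiple of 3 bases long and inside the coding sequence. They are shown because the transcript levels above turn on them. Each line gives the segment in capitals with 10 bases of the neighbouring exons on either side in lower case, read 5′ to 3′ on the strand of the gene from the GENCODE M21 transcripts (GRCm38).
Suz12 segment of 69 bases, chr11:79999057-79999125, plus strand, in Suz12-201 and absent from Suz12-206: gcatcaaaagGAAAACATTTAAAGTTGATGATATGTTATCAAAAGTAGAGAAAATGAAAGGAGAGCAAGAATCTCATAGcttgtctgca
Ezh2 segment of 27 bases, chr6:47576536-47576562, minus strand, in Ezh2-201 and absent from Ezh2-204: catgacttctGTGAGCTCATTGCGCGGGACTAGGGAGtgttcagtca
Ezh2 segment of 15 bases, chr6:47551717-47551731, minus strand, in Ezh2-204 and absent from Ezh2-201: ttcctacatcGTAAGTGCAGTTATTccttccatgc
Ezh2 segment of 126 bases, chr6:47541845-47541970, minus strand, in Ezh2-201 and absent from Ezh2-202: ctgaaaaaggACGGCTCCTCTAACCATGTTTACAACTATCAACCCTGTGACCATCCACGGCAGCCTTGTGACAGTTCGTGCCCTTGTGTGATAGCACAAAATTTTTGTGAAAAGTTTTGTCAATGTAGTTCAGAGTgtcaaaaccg

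Summed over all transcripts that reach across it, the 69-base Suz12 segment was included in 81.4% of the TPM in replicate 1 and 95.2% in replicate 2. It adds 23 codons. The 126-base Ezh2 segment, 42 codons, was included in 75.7% and 81.5%, and the rest was Ezh2-202. The 27-base Ezh2 segment, 9 codons, was included in 74.6% and 69.6%, and most of the rest was the short incomplete model Ezh2-205 (11.05 and 12.76 TPM), with 1.92 and 2.63 TPM in Ezh2-204. The 15-base Ezh2 segment, 5 codons, was included in 5.60% and 7.07%, so the longer exon end was the rare form. These shares come from the transcript estimates and not from reads across the junctions.

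The M21 and older M4 tables come from the same reads, so a difference between them is one of quantification. None of the 10 genes differed past 1.5-fold in both libraries, against 5.51% of the 13235 genes tested, with 1 TPM added to each value. Ezh2 and Eed were higher in both libraries under M21 and the other 8 were lower. For those 8 the fold of M21 over M4 ran only from 0.961 (Ring1, replicate 1) to 0.981 (Cbx8, replicate 2). The share of all genes in each direction is not given here, so the count cannot be read as particular to the members. Eed was the one with the largest difference, 51.6 TPM under M21 and 39.0 TPM under M4 in replicate 1, a 1.32-fold step, and 48.6 and 38.1 TPM in replicate 2, a 1.27-fold step. Its estimated counts differed little, 2448 against 2393 in replicate 1, while its effective length was 1452 bases under M21 and 1948 bases under M4. For Ezh2 the mean was 64.7 TPM under M21 and 56.7 TPM under M4, with 3818 and 3806 counts in replicate 1 and an effective length of 1770 against 2133 bases. Ezh2 has 15 transcript models under M21 and 12 under M4, and Eed 10 and 2; their part in the difference was not tested.

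**Figure D3:**
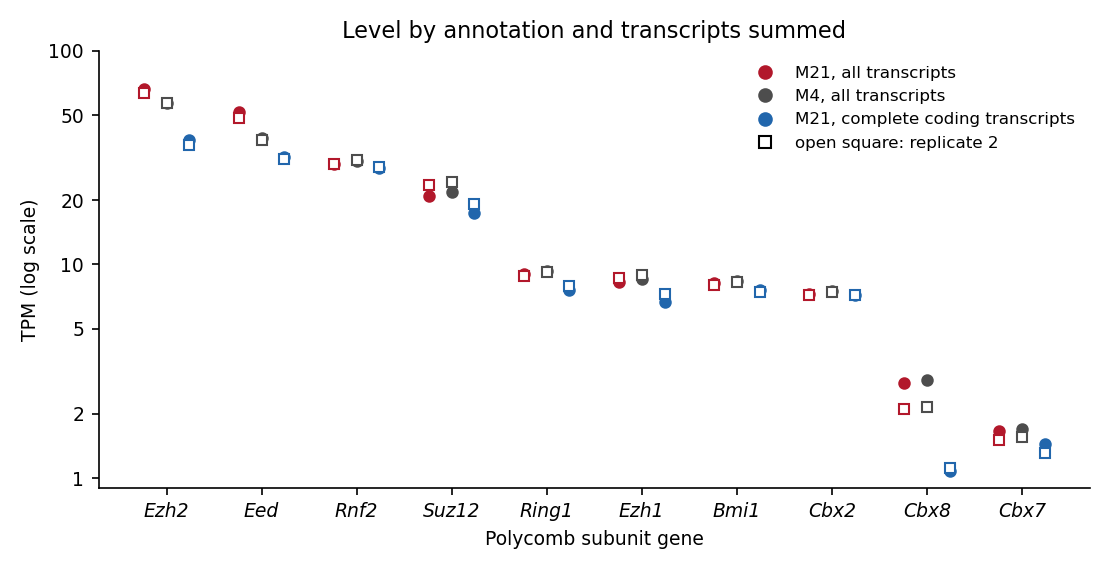
TPM of each gene on a log axis from all M21 transcripts (red), all M4 transcripts (grey) and only the complete coding M21 transcripts (blue), with filled circles for replicate 1 and open squares for replicate 2. Ezh2, Eed and Cbx8 lie clearly lower with complete coding transcripts, while Cbx2 and Rnf2 stay in place.

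The libraries gave nearly the same counts for the subunits. None of the 10 genes differed past 2-fold beyond counting error, where 2.35% of 17343 genes did, and none past a smaller limit of 0.32 in log2, where 7.2% did. Most genes past 2-fold had low counts: at a mean count of at least 50, which all 10 genes pass, 48 of 13393 genes differed. None of 10 is near each of these shares, so it is not particular to the subunits. The log2 ratio of replicate 2 to replicate 1, scaled by TMM, ran from -0.11 for Cbx8 to 0.15 for Suz12, with 5 genes above 0 and 5 below. Suz12 was the 1 of 10 genes whose 95% interval did not hold 0, at 0.15 (0.07 to 0.23), 1.11-fold, where that of 22.6% of all genes did not. Scaled by the spike-ins, where the median of all genes was -0.12, 2 were above 0 and 8 below. The call on Suz12 then ended, at 0.02 (-0.06 to 0.10), and the intervals of Ezh2, Eed, Rnf2 and Bmi1 lay below 0, while 42.5% of all genes had intervals without 0. The median absolute log2 ratio was 0.05 over the 10 genes and 0.10 over all genes tested, which were not matched on counts. These intervals compare 2 libraries and cover counting error only, with no term for spread between pools. Copies of a molecule made in amplification are not told apart, so the intervals may be too narrow even for counting error.

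**Figure D4:**
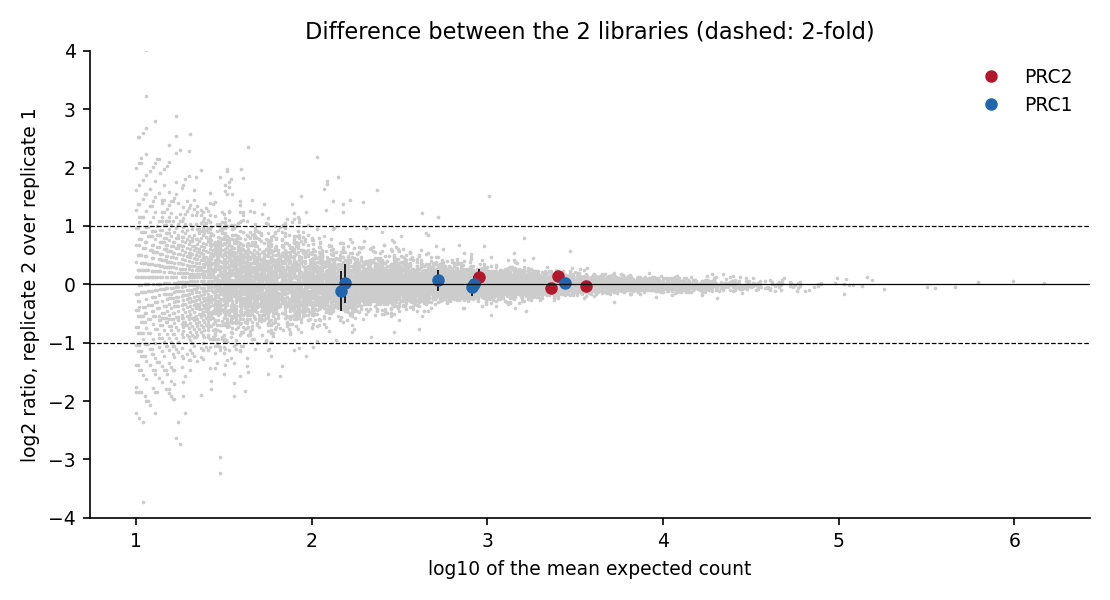
log2 ratio of estimated counts, replicate 2 over replicate 1, against the log10 of the mean count for all genes with a mean count of at least 10 (grey) and the 10 subunits (red PRC2, blue PRC1), with bars for the 95% counting interval and dashed lines at 2-fold. The subunits lie between -0.11 and 0.15, and 17 genes past a log2 ratio of 4 in either direction are outside the axis.

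Sharing of reads with other genes was small. The deposited posterior SD of the gene count was at most 1% of the count for all 10 genes in both libraries. Opposite-strand genes overlap Ezh2, Eed, Suz12, Rnf2 and Cbx7, and use of strand in the counting is not given in the sources used here, so reads in the shared bases cannot be told apart. For Rnf2 the shared stretch is 158 bases at the end of Trmt1l (26.5 and 24.8 TPM) and for Cbx7 it is 100 bases at the end of Apobec3 (45.9 and 48.0 TPM). In Suz12 the long non-coding RNA gene Gm26563, at 3.28 and 3.31 TPM, lies opposite 12515 bases of the locus. Cbx2 and Cbx8 are neighbours on chromosome 11, 5034 bases apart, yet Cbx2 was 2.93-fold above Cbx8 in gene TPM. The gap was wider over complete coding transcripts, at 7.17 against 1.10 TPM (means). It was also wider in counts, at 871 against 158 in replicate 1 and 803 against 135 in replicate 2.

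The promoters of the members were rich in CpG. For 9 of the 10 genes, all but Cbx2, RefSeq sequences of 300 bases (GRCm38.p6, from 250 before to 50 after the start) were matched by symbol. Their median GC content was 66.3%, against 52.7% over 32851 promoters, and their median number of CpG was 30, against 7. The median ratio of observed to expected CpG was 0.88, against 0.38, and all 9 lay above the median promoter, with Bmi1 lowest at 0.71. In GC content Eed was lowest, at 54.7%, above 55.6% of promoters. The members were all expressed here and the 32851 promoters were not matched on expression. The difference can therefore not be read as particular to the members. The octamers TTTGGCGC, TTTCCCGC, TTTGCCGC and TTTCGCGC, forms of the E2F consensus, were searched on both strands. They were found in 2 of 9 promoters, Ezh2 and Suz12, and in 744 of 32851 promoters, 2.26%. Each octamer holds a CpG and the 32851 promoters were not matched on CpG, so these shares are not like for like. The windows of 30 bases are shown with the octamer in capitals, since Ezh2 is a textbook E2F target.
Ezh2, chr6:47595009-47595038, minus strand, octamer 3 bases after the start: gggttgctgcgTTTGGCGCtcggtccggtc
Suz12, chr11:79992876-79992905, plus strand, octamer 219 bases before the start: cgacccctcatTTTCCCGCgaattcagttc
A match of letters is a description of the sequence and shows no binding.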

How the data were processed

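Per the labels, 2 polyA RNA-seq libraries were made from separate pools of livers (SMARTer Ultra Low kit). Per the notes deposited with each library, reads were mapped to mm10 and quantified with GENCODE M4 and M21; the aligner, the quantifier, the use of strand and the credibility level are each not given in the sources used here. The authors deposited expected counts (estimated, not whole), TPM, posterior mean TPM and credibility intervals per gene and transcript, per the file headers. TPM includes spike-ins in its total. Depth was 37190042 and 34291772 counts.

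The M21 gene TPM was used, with mean ± SD over the 2 libraries. For the library comparison, rounded expected counts of genes with a mean of at least 10 were scaled by TMM (edgeR 4.0.16, R 4.3.3; DESeq2 1.42.0 size factors as alternative), and a gene differed where it passed the fold and the exact 95% binomial (Clopper-Pearson) interval excluded the scaled split. On simulated data for this comparison (17393 genes), 99.0% of 98 genes changed 4-fold were recovered and 0.448% of unchanged genes were called. The simulated counts were Poisson draws around the real means, with no spread between pools or from amplification. These rates therefore do not measure false calls in the real libraries. Genes changed 1.5-fold were also simulated, and their recovery is not given here. Entries with bare numbers as names, which no source explains, were left out of gene sets. Ezhip was matched by a RefSeq synonym. Complete coding transcripts are protein-coding models with no tag for an incomplete end.

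The members and lists were chosen with earlier results of these data known, and 1 partner gene is not reported here. Named were all members, their paralogues and core partners, the 3 highest genes and all under 1 TPM of each other list (only the 3 highest of the repressed targets), the leading transcript of each member and every other at 10% or more in both libraries. Suz12-206, Ezh2-204, Ezh1-201, Pcgf2-204 and the overlapping genes fell outside this rule and were chosen after their values were seen. Alternatives were posterior means, M4, counts not scaled for length, other scalings, filters, folds and shares; complete coding transcripts and the leading transcript length were added after seeing the data.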

Additional observations from a re-analysis of the deposited data

How the results depend on the processing

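No paired analysis was possible because there is 1 group. In log2 units, Ezh2 over Ezh1 (2.94) was 2.70 under M4, 2.00 in counts not scaled for length, 2.42 over complete coding transcripts and 2.61 with the leading transcript length. Rnf2 over Ring1 (1.73) was 2.39 in counts not scaled for length and 1.87 over complete coding transcripts. Bmi1 over Pcgf2 (0.93) was 1.03 by posterior mean, 3.04 in counts not scaled for length, 2.48 over complete coding transcripts and -0.19, reversed, with the leading transcript length, which for Pcgf2 is that of a short model. The PRC2 over PRC1 median (2.24) was 2.19 by posterior mean, 1.96 under M4, 1.85 in counts not scaled for length, 1.76 over complete coding transcripts and 1.33 for summed TPM. The Cbx7 share of the 4 CBX genes (7.59%) was 11.8% by posterior mean and 6.13% in counts not scaled for length. Members with several transcripts (5) numbered 8 at a 5% share and 2 at 20%, with no share over all genes given here at these limits. Those differing between annotations (0) numbered 1, Eed, at a limit of 0.32 in log2, where 1332 of 13235 genes differed. Of 51 values of these comparisons under alternatives, 31 stayed within the replicate spread or 1.5 times the count. Some of the 31 could not do otherwise. Leaving out 1 of 2 libraries cannot move a mean ratio or share past its SD, and rescaling TPM cannot change a ratio. The tally therefore overstates how stable the comparisons were. Genes past 2-fold between libraries numbered 753 of 55536 with no count filter and 48 of 13393 at a mean count of 50, against 407 of 17343. Cbx7 and Cbx8 rest on 135 to 160 counts per library. Over complete coding transcripts Cbx7 (1.38 TPM) lay above Cbx8 (1.10 TPM). The cause of these shifts was not tested.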

Other observations

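The enzymes that remove the Polycomb marks were expressed beside the subunits. Bap1, the deubiquitinase that takes ubiquitin off histone H2A, had 45.6 and 45.0 TPM in replicates 1 and 2, above Rnf2. Of the 10 genes listed for its complex, 9 reached 1 TPM in both libraries, against 53.5% of protein-coding genes. In both libraries 5 reached 10 TPM, against 31.5%, and the median of the list was 9.55 TPM. The highest were Ogt, which attaches N-acetylglucosamine to proteins, at 56.5 and 57.6 TPM, the cofactor Hcfc1 at 43.5 and 49.9 TPM, and Bap1. Asxl3 was at 0.18 and 0.24 TPM. Of the demethylases that act on the PRC2 mark, Kdm6a had 17.2 and 17.1 TPM and Kdm6b 5.99 and 6.26 TPM.

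Of 20 textbook Polycomb-repressed genes, 5 reached 1 TPM in both libraries, against 53.5% of protein-coding genes. Another 4 had 0 counts in both, which allows up to 3 counts in each. The median of the 20 was 0.0475 TPM, against 1.82 TPM over protein-coding genes. The highest were Gata4 at 19.0 and 23.2 TPM, Gata6 at 12.8 and 12.7 TPM and Lhx2 at 7.21 and 6.86 TPM, transcription factors of the endoderm and of the liver mesenchyme. Lhx2 is also on the list of mesenchymal markers, whose 4 genes summed to 289 and 304 TPM. No measure of the histone marks was used here.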
